A study of Arabidopsis thaliana with 4 samples.

Results

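The genes described here encode enzymes that make or inactivate gibberellin in Arabidopsis thaliana, measured by RNA sequencing in callus. They are 10 genes, picked by locus identifier, of 32833 in the count table: KO (AT5G25900), KAO1 (AT1G05160), KAO2 (AT2G32440), GA20OX1 (AT4G25420), GA20OX2 (AT5G51810), GA3OX1 (AT1G15550), GA3OX2 (AT1G80340), GA2OX2 (AT1G30040), GA2OX6 (AT1G02400) and GA2OX8 (AT4G21200). The set was chosen by the low GA3OX2 level in the mutant and its very small spread between libraries. The comparison between genotypes is therefore given for these genes as a description. Counts of calls among them describe where they fall in the fit over all genes and are no test of the set. All 10 held enough reads in at least 1 genotype to enter the comparison across genes. GA3OX1, GA20OX2 and GA2OX8 had at most 11 reads in any mutant library and entered through their wild type libraries. Genes with so few mutant reads could enter only if they were lower in the mutant, so their direction was set by the filter.

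Seedlings were kept in darkness for 9 days, and hypocotyl pieces of about 1 cm were then cultured in continuous light at 22 °C. The medium held the synthetic auxin 2,4-D at 11 µM, the cytokinin kinetin at 0.2 µM and 2% sucrose. Callus labelled as 6 days old, with 5 to 6 days in the protocol, was taken from wild type Col-0 and from the wox5-1 wox7-1 double mutant, with 2 libraries each. The mutant carries lesions in WOX5 and WOX7, which encode related homeobox transcription factors, and no gibberellin or inhibitor is named in the medium. RNA came from about 100 calli, and separate cultures are not stated for the libraries of a genotype, so p-values measure only the spread between these libraries, which may be technical.

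Gibberellins are diterpenoid hormones that promote cell elongation and seed germination. In the endoplasmic reticulum and plastid envelope, the cytochrome P450 enzymes KO and KAO turn ent-kaurene into the first gibberellin. Soluble GA20OX and then GA3OX enzymes convert it into active hormone, and GA2OX enzymes inactivate active hormone or its precursors. Active gibberellin binds GID1 receptors, which leads to the destruction of the growth-repressing DELLA proteins, and high hormone is known to lower the mRNA of GA3OX1 and of several GA20OX genes and to raise that of several GA2OX genes.

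The libraries held 30041268 to 40008661 gene-assigned reads. WOX5 fell from 144 and 146 CPM (reads scaled to library size by TMM) in wild type callus to 0.255 and 0.846 CPM in mutant callus (log2 fold change -8.00, SE 0.42, edgeR adjusted p = 0.00986), so WOX5 does not go against the genotype labels. WOX7 rose from 14.8 and 13.1 to 22.4 and 22.2 CPM (0.68, SE 0.11, adjusted p = 0.0335), a call lost when any 1 library was left out, and whole-gene reads are no check of the wox7-1 lesion. Across genes, log2 CPM correlated at 0.978 between the wild type libraries, at 0.970 between the mutant libraries and at 0.925 to 0.954 between genotypes. Over all tested genes the higher library of a genotype exceeded the lower by a median factor of 1.09 in wild type callus and 1.13 in mutant callus.

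Of the 10 genes, 8 had a lower mean level in the mutant and 2, GA2OX2 and GA2OX6, a higher one. In bulk RNA, fewer cells that express a gene and less of its RNA per cell cannot be told apart. For all 10 the genotypes had no overlap between libraries, which was also true of 64.4% of all tested genes. By the edgeR quasi-likelihood test across all genes (adjusted p threshold 0.05), 5 of the 10 were called: KO, KAO2, GA3OX1, GA3OX2 and GA2OX8, all lower in the mutant. With so few mutant reads, GA3OX1 and GA2OX8 could have entered the test only as lower. Of all 18716 tested genes 11.9% were called, 5.81% lower and 6.06% higher (1088 and 1135 genes). With the counts as deposited, where the constant of 10 was left in, 1132 were lower and 2284 higher. The set was chosen on this contrast, so nothing is read from its share against that background. The median log2 fold change (mutant over wild type) was -1.72 over the 10 genes and -0.001 over all tested genes. Leaving out wild type replicate 1 or 2 left 0 of the 10 called by edgeR (7 and 6 had an unadjusted p under 0.05), and likewise 0 over all genes. Which of the 10 were called also changed when a mutant library was left out. Without mutant replicate 1 the log2 fold change was -2.74 for GA3OX2 and 1.25 for GA2OX2, against -2.69 and 0.68 without mutant replicate 2.

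**Figure D1:**
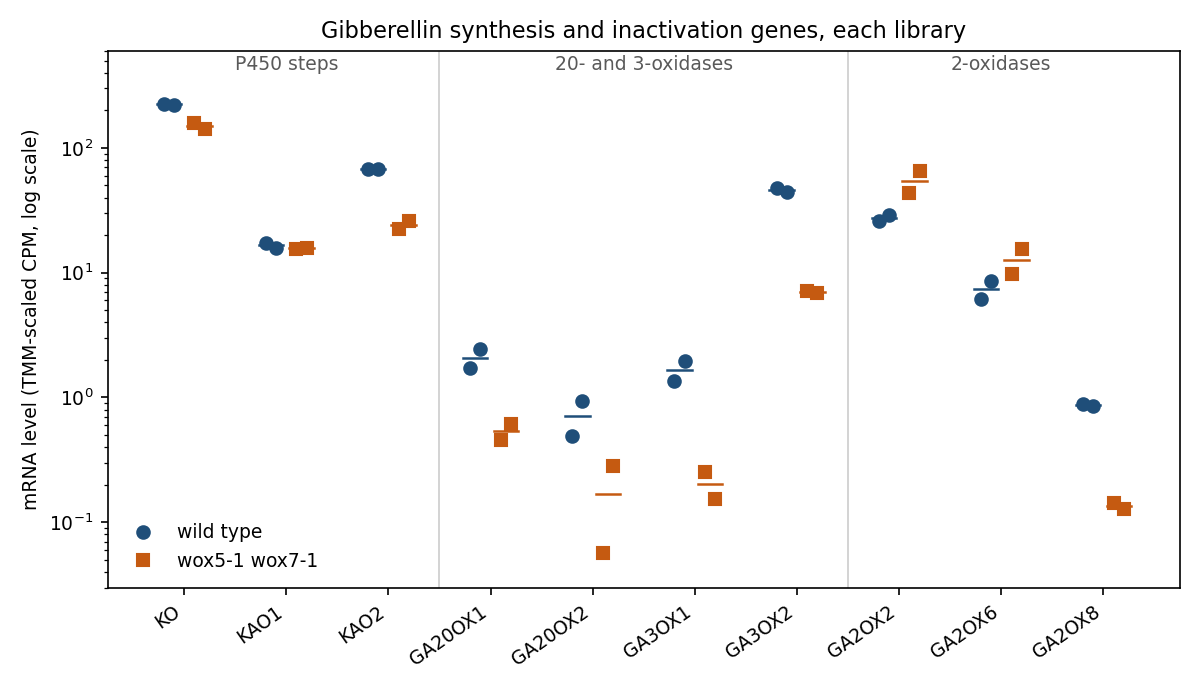
The level of each gene in each library (CPM, log scale) is shown for the wild type (circles) and wox5-1 wox7-1 (squares), with a bar at each mean. GA3OX2 lies at 47.7 and 44.1 CPM in the wild type and at 7.08 and 6.87 CPM in the mutant, while GA2OX2 and GA2OX6 lie higher in the mutant.

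KO, the ent-kaurene oxidase at the entry of the P450 steps, had the highest level per kilobase of the set. It had 225 and 222 CPM in wild type callus, against 160 and 142 CPM in mutant callus. The wild type libraries lay close together and above both mutant libraries, with a log2 fold change of -0.56 (SE 0.09). KO, annotated as GA3, lies on chromosome 5, plus strand, from 9035817 to 9038423 and has 7 exons. Of the 5 called genes it had the smallest difference, and its call was also lost without mutant replicate 2.

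At the next step, KAO1 and KAO2 oxidise ent-kaurenoic acid. KAO2 was lower in the mutant, and KAO1 was nearly level. KAO2 had 67.4 and 67.8 CPM in wild type callus, against 22.2 and 25.7 CPM in mutant callus. Both mutant libraries were well below the wild type, and the log2 fold change was -1.50 (SE 0.10), or 2.82-fold lower. KAO1 had 17.2 and 15.9 CPM in wild type callus, against 15.5 and 15.8 CPM in mutant callus. The lower wild type library was nearly level with the higher mutant one, and the log2 fold change was -0.08 (SE 0.10). The difference between the paralogs in their fold change was not tested.

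Per kilobase of exon, KAO2 made up 81.0% and 82.3% of KAO1 and KAO2 reads in wild type callus, against 61.0% and 63.9% in mutant callus. The genotypes did not overlap in this share. The smallest p that an exact permutation test can give with 2 libraries against 2, on both sides, is 0.333. KAO1 (annotated as CYP88A3) lies on chromosome 1, minus strand, from 1487378 to 1491005, and its end at the start of transcription shares 32 bases with AT1G05170 on the same strand. KAO2 lies on chromosome 2, plus strand, from 13774588 to 13778026, and both genes have 9 exons. Their coding sequences are identical at 79.5% of aligned positions, and the longest shared stretch, shown because it is the longest of the 10 paralog pairs compared, has 31 bases.
KAO1 and KAO2: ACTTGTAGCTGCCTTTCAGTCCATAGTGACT

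The GA20OX genes, whose products carry out the oxidation steps before GA3OX, were expressed at low levels. GA20OX1 had 1.71 and 2.43 CPM in wild type callus, against 0.453 and 0.616 CPM in mutant callus, from 52, 88, 16 and 24 reads. The genotypes did not overlap, and the log2 fold change was -1.95 (SE 0.40). This gene lay at the threshold. It was not called with all libraries, and 5 of the 8 alternative settings that keep all libraries called it.

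GA20OX2 rested on fewer reads still. It had 0.493 and 0.940 CPM in wild type callus, against 0.0566 and 0.282 CPM in mutant callus, from 15, 34, 2 and 11 reads. Mutant replicate 1 lay under the level of 3 reads, and the mutant libraries differed from each other 4.98-fold, more than those of any other gene of the set. The log2 fold change was -2.05 (SE 0.84), and it ranged from -3.58 to -1.34 when 1 library was left out. GA20OX1 lies on chromosome 4, minus strand, from 12990851 to 12992585, and GA20OX2 on chromosome 5, minus strand, from 21055179 to 21056881, each with 3 exons.

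GA3OX2 encodes an enzyme of the last step to active hormone, and it carried nearly all GA3OX reads in this callus. Its level was 47.7 and 44.1 CPM in wild type callus, against 7.08 and 6.87 CPM in mutant callus (1452, 1594, 250 and 268 reads). The mutant libraries lay close together and far below both wild type libraries. Mean levels were 45.9 ± 2.59 against 6.97 ± 0.142 CPM (SD, n = 2 per genotype), which is 6.58-fold lower in the mutant, with a log2 fold change of -2.72 (SE 0.10). The gene lies on the minus strand of chromosome 1 (30200466 to 30202349, TAIR10.1) and has 2 exons, with no overlapping gene.

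GA3OX1, a second enzyme of the same step, had a far lower level per kilobase of exon. It had 1.35 and 1.96 CPM in wild type callus, against 0.255 and 0.154 CPM in mutant callus, from 41, 71, 9 and 6 reads. The genotypes did not overlap, and the log2 fold change was -3.01 (SE 0.49). Its call was also lost without mutant replicate 2. GA3OX1 lies on chromosome 1, minus strand, from 5344388 to 5346342. The other GA3OX genes were not detected: GA3OX3 and GA3OX4 had 0 reads in every library, where 3 reads correspond to 0.0770 to 0.0986 CPM.

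The share of GA3OX2 among GA3OX reads was similar in the libraries of both genotypes. GA3OX2 took 97.3% and 95.7% of all GA3OX reads in wild type callus, against 96.5% and 97.8% in mutant callus. The exact 95% binomial intervals, which cover counting error only, run from 94.7% to 98.0% over the wild type libraries and from 93.5% to 99.2% over the mutant libraries. The ranges of the genotypes overlap.

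Within the GA3OX family GA3OX4 lies next to GA3OX2, 928 bases away on the same strand with no annotated gene between them. It had no read in any library. The coding sequence of GA3OX2 is identical to that of GA3OX1 at 76.6% of aligned positions, and to that of GA3OX4 at 62.3%. The longest stretch that GA3OX2 shares with each is shown here because it is the longest run in which a read would match both without a mismatch, in capitals throughout since every base is shared.
GA3OX2 and GA3OX1: ATGTGGTCCGAAGGTTTCACC
GA3OX2 and GA3OX4: ATCGACCTCTC
These stretches are 21 and 11 bases long. No source used here gives the read length or how reads matching several genes were counted.

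The 250 bases upstream of the annotated start of GA3OX1 are shown because the gene was lower in the mutant. They are credited to RefSeq (TAIR10.1, minus strand, chr1:5346343-5346592). Capitals mark TAAT, the core bound by many homeodomain proteins, on either strand.
GA3OX1: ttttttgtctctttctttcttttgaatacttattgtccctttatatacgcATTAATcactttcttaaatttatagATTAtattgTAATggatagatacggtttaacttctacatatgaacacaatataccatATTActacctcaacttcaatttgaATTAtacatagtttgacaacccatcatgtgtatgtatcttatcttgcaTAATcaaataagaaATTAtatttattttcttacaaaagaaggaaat
The window held 8 matches of TAAT, counting overlapping ones and both strands. A TAAT was present in 97.6% of 27443 windows of this length at nuclear protein-coding genes, with a median of 5 per window.

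Among the genes of inactivation, GA2OX2 and GA2OX6 were higher in the mutant, and GA2OX8 was lower. GA2OX2, whose product acts on active gibberellin and its direct precursors, had 25.8 and 29.2 CPM in wild type callus, against 43.9 and 65.6 CPM in mutant callus. The genotypes did not overlap, but mutant replicate 2 stood 1.49-fold above mutant replicate 1. Mean levels were 27.5 ± 2.36 against 54.7 ± 15.3 CPM (SD, n = 2 per genotype), with a log2 fold change of 0.99 (SE 0.22). It was not called as reported but was in 4 of the 8 other settings that keep all libraries and without either mutant library, and the value was 0.68 without mutant replicate 2 and 1.25 without mutant replicate 1. GA2OX2 lies on chromosome 1, plus strand, from 10537457 to 10540044 and has 3 exons.

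GA2OX6, of the same class, had 6.18 and 8.63 CPM in wild type callus, against 9.71 and 15.4 CPM in mutant callus. The upper wild type library came near the lower mutant library, and mutant replicate 2 was 1.58-fold above mutant replicate 1. The log2 fold change was 0.76 (SE 0.30). It was called in 1 of the 8 other settings that keep all libraries, the one with replicate number as a block, and replicate 2 was also 1.40-fold above replicate 1 in the wild type. The log2 fold change was 0.39 without mutant replicate 2 and 1.05 without mutant replicate 1. GA2OX6 lies on chromosome 1, plus strand, from 486800 to 489651.

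GA2OX8, whose product acts on earlier precursors, was rare in both genotypes. It had 0.888 and 0.857 CPM in wild type callus, against 0.142 and 0.128 CPM in mutant callus, from 27, 31, 5 and 5 reads. The libraries of each genotype lay close together without overlap, but the 5 reads in each mutant library are near the level of 3 reads. Closeness at so few reads is no sign of a small spread. GA2OX8 had a log2 fold change of -2.66 (SE 0.46). None of the 4 fits that leave out 1 library called it. GA2OX8 lies on chromosome 4, plus strand, from 11302682 to 11306770. Of the other GA2OX genes, GA2OX4 had 16.3 and 14.9 CPM in wild type callus, against 12.5 and 12.7 CPM in mutant callus, with a log2 fold change of -0.30 (SE 0.11). GA2OX1, GA2OX3 and GA2OX7 had at most 3 reads in any library. AT5G58660, listed as GA2OX9, was lower in the mutant and is described below with the other gibberellin genes.

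The longer motif TTAATGG, a sequence bound by the related homeodomain factor WUSCHEL, was found in 2 of the 9 windows examined, those of GA2OX6 and GA2OX8. It occurs in 6.99% of all windows, on either strand. Both windows are shown because the mean level was higher in the mutant for GA2OX6 and lower for GA2OX8. They are RefSeq sequence on the plus strand, chr1:486550-486799 for GA2OX6 and chr4:11302432-11302681 for GA2OX8, and capitals mark TAAT and TTAATGG, which overlap.
GA2OX6: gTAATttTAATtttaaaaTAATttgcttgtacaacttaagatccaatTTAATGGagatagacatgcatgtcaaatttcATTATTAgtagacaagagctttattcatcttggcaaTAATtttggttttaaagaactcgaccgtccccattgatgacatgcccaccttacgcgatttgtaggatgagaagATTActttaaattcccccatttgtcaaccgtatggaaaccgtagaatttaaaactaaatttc
GA2OX8: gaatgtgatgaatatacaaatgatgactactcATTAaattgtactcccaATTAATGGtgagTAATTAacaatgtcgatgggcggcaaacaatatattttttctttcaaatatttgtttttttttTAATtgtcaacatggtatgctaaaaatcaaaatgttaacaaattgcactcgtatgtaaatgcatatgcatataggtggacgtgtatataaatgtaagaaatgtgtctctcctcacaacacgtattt
The G-box CACGTG was in 0 of the 9 windows and in 6.49% of all windows. The core AAAG of DOF factors was in all 9 windows, with 1 to 7 matches, and in 98.0% of all windows. A match describes letters in the window and is no evidence of binding.

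The order of the genes by level differed between the genotypes. Per kilobase of exon, the order of mean CPM in the wild type was KO (116), KAO2 (34.4), GA3OX2 (31.5), GA2OX2 (11.5), KAO1 (7.76), GA2OX6 (4.95), GA20OX1 (1.34), GA3OX1 (1.09), GA2OX8 (0.587) and GA20OX2 (0.459). Neighbours in this order whose libraries overlapped were GA20OX1 with GA3OX1 and GA2OX8 with GA20OX2. In the mutant, the order was KO (78.2), GA2OX2 (23.0), KAO2 (12.2), GA2OX6 (8.37), KAO1 (7.32), GA3OX2 (4.78), GA20OX1 (0.346), GA3OX1 (0.134), GA20OX2 (0.109) and GA2OX8 (0.0908). There the overlapping neighbours were GA2OX6 with KAO1, GA3OX1 with GA20OX2 and GA20OX2 with GA2OX8.

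GA3OX2 stood above GA2OX2 in the wild type order and below it in the mutant order. Per kilobase, the ratio of GA2OX2 to GA3OX2 was 0.332 and 0.405 in the wild type libraries, so GA3OX2 was the more abundant mRNA. In the mutant libraries it was 3.80 and 5.84, so GA2OX2 was the more abundant. Both numerator and denominator were seen when the set was chosen, and the ratio is a description. GA2OX4, which is not in the set, had 13.2 and 12.1 CPM per kilobase in wild type callus, against 10.2 and 10.4 in mutant callus. Its wild type mean was above that of GA2OX2, but the libraries of these genes overlapped (10.9 and 12.2 for GA2OX2). Before division by exon length, 2382 bases for GA2OX2, the order was the reverse. GA2OX2 then had 25.8 and 29.2 CPM in wild type callus, against 16.3 and 14.9 CPM for GA2OX4. GA2OX2 made up 37.7% and 39.9% of GA2OX1 to GA2OX8 reads per kilobase in wild type callus, against 52.4% and 57.0% in mutant callus. Without GA2OX4, the 3 GA2OX genes of the set summed to 15.6 and 18.6 CPM per kilobase in wild type callus, against 25.0 and 37.9 in mutant callus.

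Other gibberellin genes were taken from lists made by function: 63 genes, of which 35 were tested and 18 had no read in any library. Of the 35, 6 fell and 2 rose, 27 were not called, and 28 had no overlap between genotypes. Over all tested genes 11.9% were called and 64.4% had no overlap. The lists were made with earlier results of these data known, so nothing is read from their values against that background. The median log2 fold change of the 35 listed genes tested was -0.26, against -0.001 over all tested genes. It was the same with the gene that had no mutant read set at its bound. Leaving out wild type replicate 1 or 2 left 0 of these called by edgeR, while 10 and 12 had an unadjusted p under 0.05. DESeq2 called 13 of them.

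In synthesis, GA20OX3 fell. It had 49 and 101 reads in the wild type libraries and none in the mutant libraries (edgeR adjusted p = 0.0259). It therefore entered the comparison through the wild type libraries alone. Against a floor of 3 reads over the mutant libraries, it was at least 55.8-fold lower. GA20OX3 lies on chromosome 5, minus strand, from 2243553 to 2245339. KS, which makes ent-kaurene before the KO step, had 34.9 and 33.1 CPM in wild type callus, against 37.3 and 40.8 CPM in mutant callus (log2 fold change 0.20, SE 0.09, edgeR adjusted p = 0.205). The first enzyme of the branch, CPS, had 3 and 1 reads in wild type callus and 0 in mutant callus, too few to be tested.

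In inactivation, 1 of 3 tested genes fell. AT5G58660, annotated as an oxygenase of the enzyme superfamily that holds GA2OX, fell from 10.3 and 8.82 CPM to 3.00 and 3.90 CPM (log2 fold change -1.47, SE 0.22, edgeR adjusted p = 0.0308). The annotation used gives it no role in gibberellin metabolism. The gibberellin methyltransferase genes GAMT1 and GAMT2 had no reads in any library.

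Of 11 tested genes of perception and DELLA function, 2 fell and 9 were not called, with a list median of -0.30. Both that fell encode DELLA repressors, while the DELLA genes RGL1, RGL2 and RGL3 were not called. RGL3 had 101 and 86.5 CPM in wild type callus, against 83.3 and 73.0 CPM in mutant callus (log2 fold change -0.26, SE 0.12). The log2 fold change was -0.86 (SE 0.22) for RGL1 and 0.29 (SE 0.21) for RGL2. GAI fell from a mean of 20.6 ± 0.882 CPM to 9.74 ± 1.19 CPM (SD, n = 2 per genotype), with an edgeR adjusted p of 0.0232 and a log2 fold change of -1.08 (SE 0.13). RGA fell from 42.6 and 39.0 CPM to 25.1 and 29.0 CPM (-0.59, SE 0.11, adjusted p = 0.0448), a call that was also lost without mutant replicate 1 (adjusted p = 0.0650). Of the GID1 receptor genes, 0 of 3 were called, and GID1B, the highest per kilobase, had 205 and 199 CPM in wild type callus, against 153 and 124 CPM in mutant callus (-0.54, SE 0.12, adjusted p = 0.0595).

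Genes of the GASA family encode small cysteine-rich peptides, several of which respond to gibberellin. Of 6 tested, 2 fell and 4 were not called, with a list median of -0.89. GASA14 fell from 270 and 249 CPM to 51.2 and 76.7 CPM (log2 fold change -2.02, SE 0.21, edgeR adjusted p = 0.0204). AT2G14900, annotated as a gibberellin-regulated family protein, fell from 1.18 and 1.27 CPM to 0.198 and 0.0770 CPM (-3.14, SE 0.58, adjusted p = 0.0431), a call also lost without mutant replicate 2. AT2G14900 had 36 and 46 reads in wild type callus, against 7 and 3 in mutant callus. That gene entered the comparison through its wild type libraries. GASA4, the highest of the family per kilobase, had 434 and 406 CPM in wild type callus, against 268 and 336 CPM in mutant callus (-0.48, SE 0.13, adjusted p = 0.0886).

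Of 2 tested transport genes, 1 rose. NPF4.1, a transporter that moves gibberellin and abscisic acid in yeast assays, rose from 2.27 and 2.90 CPM to 14.0 and 8.34 CPM (log2 fold change 2.11, SE 0.33, edgeR adjusted p = 0.0332). Its call was lost with limma-voom (adjusted p = 0.0607). Of 11 tested regulators of gibberellin genes, 1 rose and 10 were not called, with a list median of 0.15. DAG1, a DOF factor known to repress GA3OX1 in seeds, rose from 134 and 132 to 230 and 209 CPM (log2 fold change 0.72, SE 0.08, adjusted p = 0.0217). SCL3, whose mRNA is raised by DELLA proteins, had 73.4 and 79.1 CPM in wild type callus, against 61.0 and 71.0 CPM in mutant callus (-0.21, SE 0.10, adjusted p = 0.239).

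**Figure D2:**
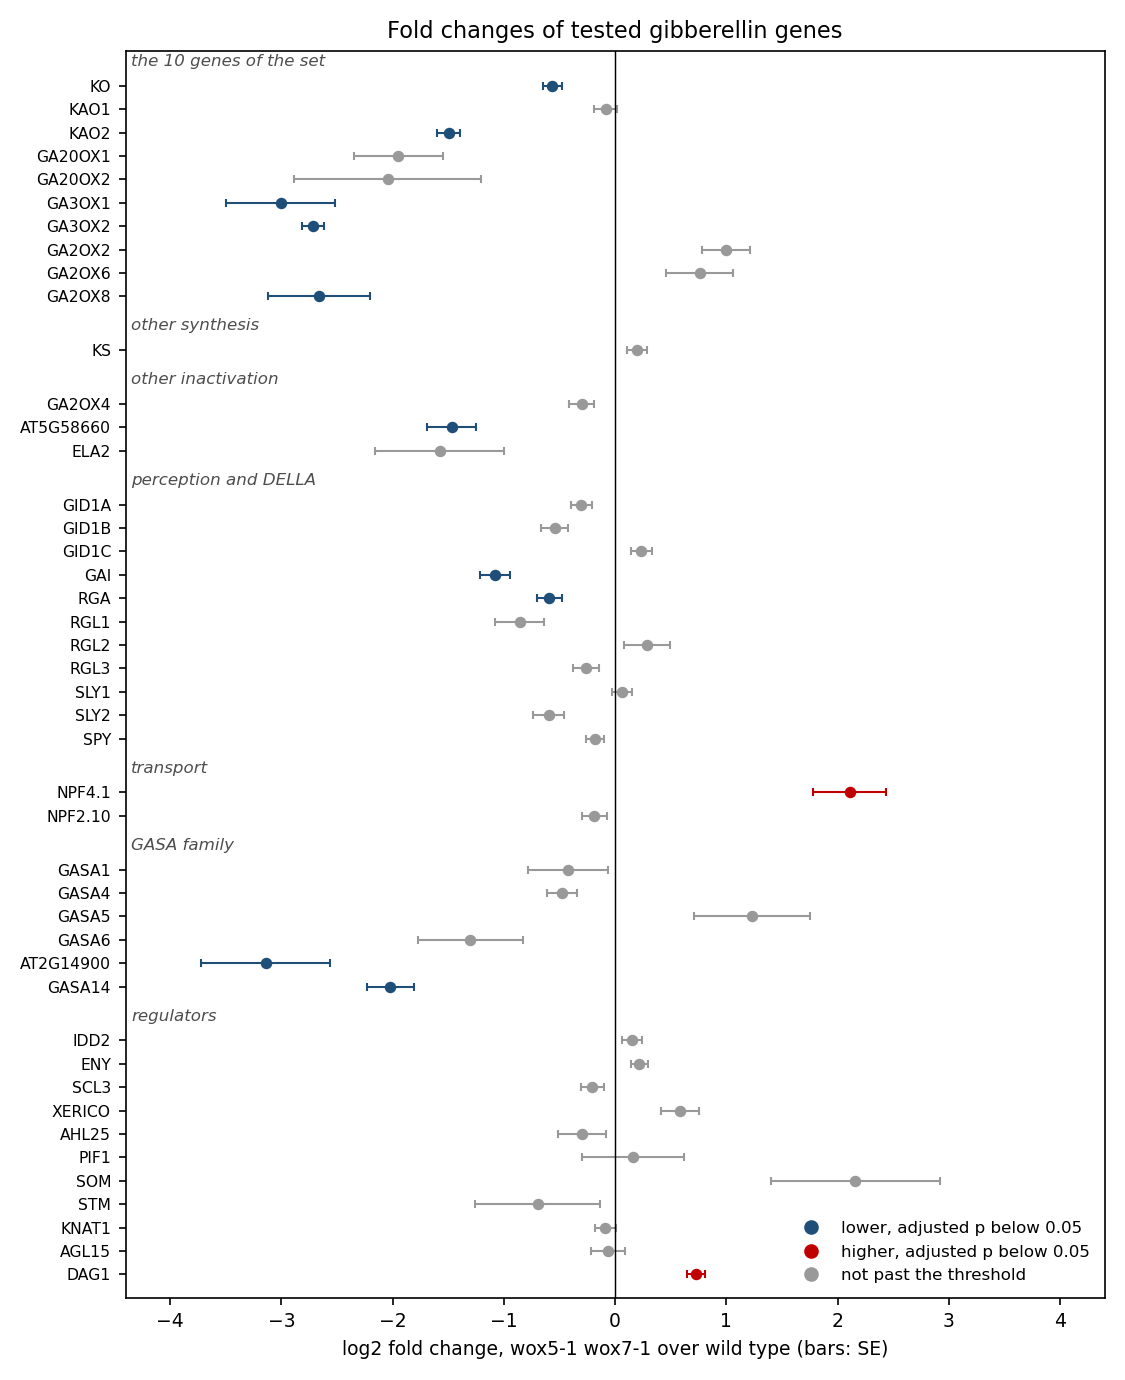
Log2 fold changes (mutant over wild type, with SE) are shown for the 10 genes and the other tested gibberellin genes by function, coloured by the edgeR call. Called genes of the lists lie to the left except NPF4.1 and DAG1, and GA20OX3 is left out because it had 0 reads in the mutant.

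The genes with a symbol whose pattern over the 4 libraries was closest to that of GA3OX2 were APL4, XTH9 and RD28. The measure was the distance between log2 CPM values centred on the wild type mean. Of the 17109 other tested genes with a mean of at least 1 CPM, only those with a symbol were ranked. The distances were 0.273, 0.284 and 0.288 on the log2 scale. XTH9, which encodes a cell wall enzyme acting on xyloglucan, had 103 and 109 CPM in wild type callus, against 18.7 and 17.8 CPM in mutant callus. APL4, a subunit gene of the first enzyme of starch synthesis, had 7.43 and 7.08 CPM in wild type callus, against 1.16 and 1.26 CPM in mutant callus. RD28, an aquaporin gene, had 18.9 and 15.0 CPM in wild type callus, against 2.46 and 2.95 CPM in mutant callus. With 4 libraries many genes share such a pattern, and nothing follows about shared control.

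Markers of several cell types moved with genotype, and their part in the results above was not tested. All 11 callus and root stem cell markers were detected, and their summed level was 2082 to 2157 CPM in wild type callus and 1653 to 1879 CPM in mutant callus, with 3 higher and 3 lower. These 6 calls and the sums include the mutated genes, WOX5 among the lower and WOX7 among the higher. The others called were PLT2 and SCR, lower, and WOX11 and LBD18, higher. PLT3, which was not called, made the largest part of the sum, with 920 and 924 CPM in wild type callus, against 822 and 707 CPM in mutant callus. Epidermis markers summed to 1158 to 1297 CPM in wild type callus and 686 to 918 CPM in mutant callus, with 1 of 3 lower: ATML1, a regulator of epidermal identity, had 49.5 and 54.2 CPM in wild type callus, against 2.46 and 9.08 CPM in mutant callus. Of the others, PDF1 had 633 and 748 CPM against 131 and 337 CPM, and FDH had 476 and 494 CPM against 553 and 572 CPM, higher in both mutant libraries, and neither was called. Endodermis markers summed to at most 4.41 CPM in the wild type and to 23.9 to 24.0 CPM in the mutant, with 2 of 3 tested higher. Most of that sum was MYB36, a regulator of endodermal differentiation, which rose from 2.79 and 1.69 to 20.9 and 20.9 CPM (log2 fold change 3.23, SE 0.27, edgeR adjusted p = 0.0162). SGN3, a receptor kinase gene of the Casparian strip, also rose, from 0.362 and 0.360 to 1.53 and 1.31 CPM (1.96, SE 0.37, adjusted p = 0.0454), while CASP1, which encodes a scaffold protein of that strip, was at 0 in all libraries. Xylem markers summed to 6.58 to 8.09 CPM in wild type callus and 12.6 to 18.1 CPM in mutant callus, with 1 of 4 tested higher. Most of the wild type sum was IRX3, which was nearly level (6.64 and 5.84 CPM against 6.99 and 6.13 CPM). Every other xylem marker was higher in both mutant libraries, though VND6 and VND7 had at most 30 reads in any library. The gene called was XCP1, which rose from 0.658 and 0.277 to 5.94 and 3.87 CPM. Phloem markers summed to 19.8 to 21.6 CPM against 14.7 to 14.9 CPM, with 1 of 3 lower, and leaf mesophyll markers to 13.6 to 20.1 CPM against 13.7 to 25.5 CPM, with 0 of 3 called.

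**Figure D3:**
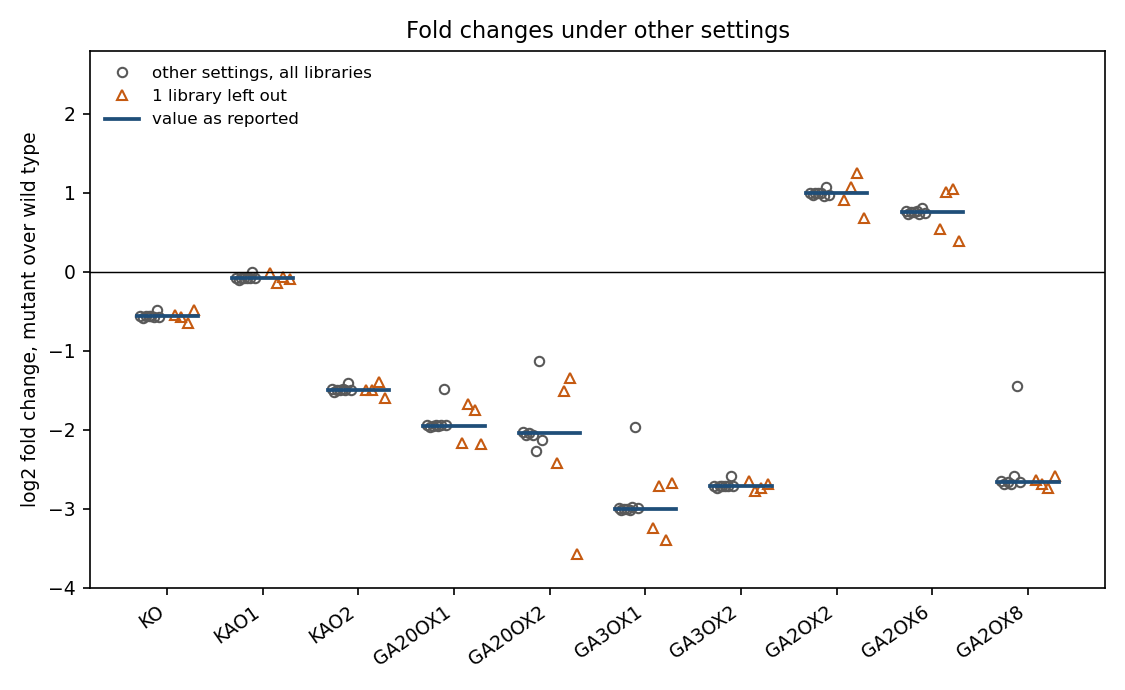
The log2 fold change of each gene (mutant over wild type) is shown as reported (line), under the other settings with all libraries (circles) and with 1 library left out (triangles). GA3OX2 ranges from -2.78 to -2.59, while GA20OX2 ranges from -3.58 to -1.13.

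Direction was kept by all 10 genes in each of the alternatives in which they were tested, 118 values in all. Because the libraries of the genotypes did not overlap for any of them, leaving out 1 library could hardly reverse a direction. Keeping it therefore adds no support. KAO1 came as near to 0 as -0.001 with the counts as deposited, which is hardly a direction. The size of the change was least stable for the genes with few reads. GA3OX2 lay between -2.78 and -2.59 on the log2 scale, KAO2 between -1.60 and -1.40 and KO between -0.65 and -0.48. The set was chosen for the small spread of GA3OX2, so the narrow range of that gene is no separate result. GA3OX1 lay between -3.40 and -1.97, and GA2OX8 between -2.73 and -1.45. For each of these last 2 genes the value nearest to 0 came from the counts as deposited, in which a constant of 10 weighs most on low counts.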

How the data were processed

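The authors deposited gene counts as whole numbers of reads. Per the submitters' processing notes, Trim Galore 0.5.0, STAR 2.7.2b, DESeq2 and TAIR10 were used, with no role given. No source used here gives the counting tool, annotation release or strand setting. Every deposited count is at least 10, and 33.1% to 35.3% of values per library equal 10. A constant of 10 was therefore taken to have been added, which is an inference, and was subtracted. Gene models and sequences came from RefSeq TAIR10.1, whose annotation matched 32548 identifiers. Organelle genes were the rest. A floor of 3 reads equals 0.0770 to 0.0986 CPM.

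Analysis used R 4.3.3 with edgeR 4.0.16: filterByExpr (18716 genes kept), TMM scaling, glmQLFit and glmQLFTest over all 4 libraries with genotype as the only term. Tests were two-sided, and p-values were adjusted (Benjamini-Hochberg) across the kept genes, with 0.05 as the threshold. Each SE was derived as the size of the log2 fold change over the root of its F statistic. CPM is TMM-scaled, and per-kilobase values divide by the union of exons. The procedure was tested on simulated data with the same dispersion for every gene, set below the common dispersion fitted to these libraries. That run is therefore no check of the calls made here. Other settings tried were upper-quartile or RLE scaling, no filter, a stricter filter (CPM of at least 1 in 2 libraries), DESeq2 1.42.0, limma-voom (limma 3.58.1), values as deposited (loess dispersion trend, since the default failed), a replicate block and each library left out. Upstream windows were examined for 9 of the 10 genes, and that of GA3OX2 is not reported here. Coding sequences were aligned with Biopython 1.88.

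The members, gene lists and rules for named genes were chosen with earlier results of these data known. Named were the members, the mutated genes, the called genes of each gibberellin list (at most 6 by p, otherwise 1), GA3OX4 and the 3 genes most like GA3OX2. KS, CPS, GA2OX1, GA2OX3, GA2OX4, GA2OX7, GA3OX3, GAMT1, GAMT2, GID1B, RGL1, RGL2, RGL3, GASA4, SCL3 and the cell type markers PLT2, PLT3, SCR, WOX11, LBD18, ATML1, PDF1, FDH, MYB36, SGN3, CASP1, IRX3, VND6, VND7 and XCP1 were named after their values were seen. Libraries of a genotype exceeded sampling noise (chi-square over its degrees of freedom, 20.04 and 48.6) and were kept apart. No column lay outside the 4 samples.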

Additional observations from a re-analysis of the deposited data

How the results depend on the processing

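Each of the 10 members and 10 other genes named by the rule kept its direction in all alternatives that tested it (118 values for the 10 members and 120 for the others). The genotypes overlapped for none of these genes, so leaving out 1 library could hardly reverse a direction. Counts over all genes and over the other gibberellin genes were 3943 and 13 with DESeq2 (2223 and 8 as reported). With values as deposited, 3416 genes passed of 32833 tested, and the GA3OX2 log2 fold change was -2.59 instead of -2.72. Leaving out 1 library each gave 0 to 2493 genes over all, 0 to 5 members, 0 to 10 other gibberellin genes, and -2.78 to -2.65 for GA3OX2. Without a wild type replicate, edgeR left 0 genes, with 3428 and 3346 at an unadjusted p below 0.05. These fits leave 1 library in a genotype, assumed to vary like the other. Replicate numbers are shared between genotypes, but the labels name no shared source. Deviations of same-numbered libraries correlated at 0.555 across genes. With the replicate block, 4750 genes, 8 members and 16 other gibberellin genes passed, the members gained being GA20OX1, GA2OX2 and GA2OX6. The causes were not tested. Depth limits GA3OX1, GA20OX1, GA20OX2 and GA2OX8, with under 100 reads per library.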
